A study of Homo sapiens with 4 samples.

Results

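Disulfiram alone was compared with no drug in KBM5, an established human chronic myeloid leukemia cell line, by mRNA sequencing of 1 library a side. The library labelled DSF is read here as cells given disulfiram, and the library labelled CTR as untreated cells; neither dose nor duration is given in the labels. The other 2 of the 4 libraries in the series, labelled IM-DSF and IM, are read as imatinib with disulfiram and imatinib alone, and imatinib inhibits the BCR-ABL kinase that these cells carry. According to its title, the study targeted the lipid peroxide reductase GPX4 together with BCR-ABL in leukemia stem cells. The members are the 11004 genes, of 50868 in the deposited table, that averaged at least 1 FPKM (fragments divided by gene length in kilobases and by library depth) over the 4 libraries. For each gene the difference between DSF and CTR was taken on the log2(FPKM + 1) scale, which understates the change of low genes. A gene is said to have passed the size rule when that difference was at least 1 log2 unit, about 2-fold, in either direction. Since each side is 1 library, no p-value is given, and a difference between drug and no drug cannot be told apart from a difference between 2 cultures.

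Disulfiram is a drug against alcohol dependence that inactivates aldehyde dehydrogenase. Its metabolite binds copper, and the copper complex has been shown in other cancer cells to aggregate NPL4, an adaptor that brings ubiquitinated proteins to the p97 (VCP) unfoldase. Heavy metals and electrophiles are known to switch on metallothionein genes through the factor MTF1, antioxidant genes through NRF2 and chaperone genes through HSF1, so the genes of these 3 responses, the drug's protein targets and the myeloid program of the cells are described in turn below.

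Fragment numbers could be recovered for most genes, which gives the counting error behind each ratio. The libraries had denominators of 14704463 fragments in DSF and 14506543 in CTR, and of 12443255 and 15810648 in IM-DSF and IM. Fragments came out whole in both libraries for 10649 of the 11004 genes, and the median gene past the filter held 587 fragments in DSF and 581 in CTR. Markers of the labelled cell type were present. Granule proteins of immature myeloid cells, such as the protease PRTN3 with 1016 FPKM in DSF and 769 FPKM in CTR, were among the abundant transcripts. Of markers of other lineages, 3 of 19 erythroid, 3 of 13 megakaryocyte, 2 of 13 eosinophil, basophil and mast cell, 1 of 17 T, NK and B cell and 1 of 12 stromal and epithelial genes passed the filter. The summed level of the lymphoid markers was 11.8 FPKM in DSF and 12.6 FPKM in CTR, with 9 of the 17 at 0 in both. That of the erythroid markers was 338 and 408 FPKM in DSF and CTR, with 12 of the 19 at 0 in both, and came mostly from CA2, a carbonic anhydrase, at 324 and 395 FPKM; that of the megakaryocyte markers was 126 and 140 FPKM, with 5 of the 13 at 0 in both. Their part in the results below was not tested. Mitochondrial genes held 32.6% of the summed FPKM in DSF and 31.3% in CTR. These are shares of FPKM, which divides by gene length, and not shares of fragments.

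Most genes hardly differed. The DSF value was the higher one for 5503 genes and the lower one for 5500, the median difference was 0.00, and 76.5% of genes lay within 0.25 log2 units of 0. The size rule was passed upwards by 60 genes (0.545% of those compared) and downwards by 63 genes (0.573%). Between IM-DSF and IM, a pair of libraries that shares none with this one, 77 genes (0.7%) were higher and 114 (1.04%) lower by the same rule. The counting interval of the ratio, an exact 95% interval that covers counting error only, lay above 1 for 2442 of the 10649 genes (22.9%) and below 1 for 2421 (22.7%). Any single gene whose interval excludes 1 therefore stands among 45.7% of all genes.

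**Figure D1:**
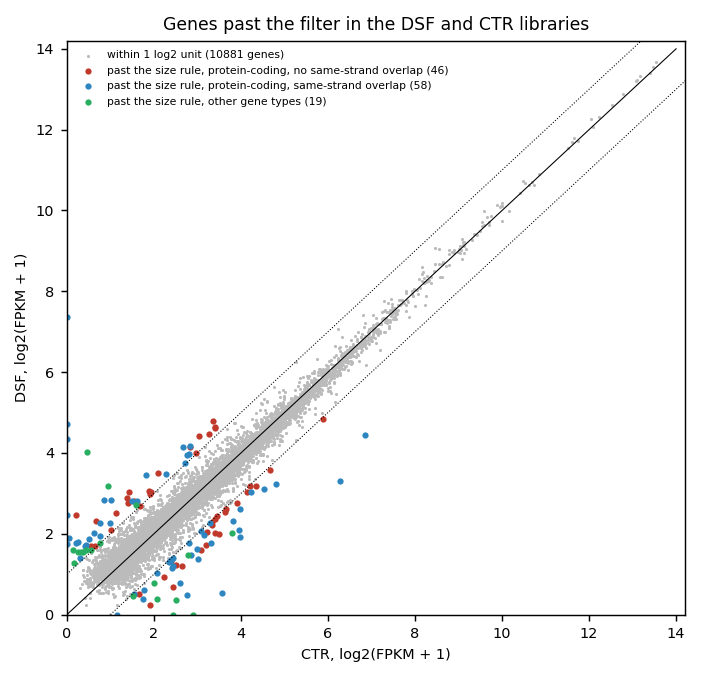
Each point is 1 of the 11004 genes, with log2(FPKM + 1) in DSF on the vertical axis and in CTR on the horizontal axis; dotted lines mark the size rule of 1 log2 unit. Genes past the rule (46 and 58 protein-coding genes without and with same-strand overlap, and 19 others) lie mostly at low and middle levels, and the most abundant genes stay close to the diagonal.

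Of the 123 genes past the rule (1.12% of those compared), 104 were protein-coding, and these fell into 2 classes. In 46 of them no other gene overlaps on the same strand; in 58 one does, and the fragments of a shared region can be divided between the genes. The share past the rule was 0.747% of the 6154 protein-coding genes without such overlap and 1.81% of the 3211 with it, of which 27 were higher in DSF (0.841%) and 31 lower (0.965%). Among those without overlap, 22 were higher in DSF (0.357%) and 24 lower (0.39%). Those past the rule were 0 of 391 such genes with 1 annotated transcript, 7 of 1384 with 2 to 4, 20 of 1842 with 5 to 8, 17 of 1862 with 9 to 16 and 2 of 675 with 17 or more. Among those that averaged 20 FPKM or more, 3 of 894 passed it.

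The 22 higher genes without overlap included an enzyme of heme synthesis, an amino acid transporter and a blood cell transcription factor. NUDT4, a hydrolase of inositol pyrophosphates, had 4.54 FPKM in DSF and 0.161 FPKM in CTR, from 1344 and 47 fragments, and 2.32 and 2.30 FPKM in IM-DSF and IM. Its DSF and CTR values were the highest and the lowest of the 4 libraries; NUDT4 has a near-identical copy, so its value is uncertain. ALAD, the second enzyme of heme synthesis, had 7.14 FPKM in DSF against 1.68 FPKM in CTR, a ratio of 4.24 (interval 3.65 to 4.95). In IM-DSF and IM it had 7.88 and 7.98 FPKM, so CTR alone was low. SLC36A1, a proton-coupled amino acid transporter of the lysosome, followed the same pattern, with 4.71 FPKM in DSF and 1.18 FPKM in CTR, and 4.61 and 4.25 FPKM in IM-DSF and IM. LMO2, a bridging subunit of hematopoietic transcription complexes, had 23.8 FPKM in DSF and 9.50 FPKM in CTR (ratio 2.50, 2.29 to 2.74), with 24.4 and 28.2 FPKM in IM-DSF and IM. RBPJ, the DNA-binding factor of Notch signalling, had 16.6 FPKM in DSF and 6.06 FPKM in CTR, and DCP2, the catalytic subunit of mRNA decapping, had 6.05 and 1.89 FPKM. In both of them IM-DSF and IM again lay above the DSF level, between 7.86 and 19.4 FPKM.

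YWHAB behaved differently. This 14-3-3 adaptor, a scaffold that binds phosphorylated proteins, had 26.8 FPKM in DSF against 9.31 FPKM in CTR (ratio 2.87, 2.71 to 3.05) and 32.6 FPKM in IM-DSF against 11.6 FPKM in IM, so both libraries given DSF were high and both others low. EIF2S3B, a near-identical copy of an initiation factor subunit gene and so uncertain, had 3.96 FPKM in DSF and 0.589 FPKM in CTR; NKTR, a cyclophilin-related protein, had 7.27 and 2.66 FPKM; and AKIRIN1, a nuclear protein, had 23.6 and 9.61 FPKM. A group of 4 genes was high in DSF and IM and low in CTR and IM-DSF. MAPK14, the stress kinase p38 alpha, had 21.1 FPKM in DSF and 8.65 FPKM in CTR, but 7.89 FPKM in IM-DSF and 22.5 FPKM in IM. SZRD1 had 20.3 FPKM in DSF and 7.21 FPKM in CTR with 6.35 and 19.7 FPKM in IM-DSF and IM, and the chromatin protein ADNP and the zinc finger gene ZNF672 showed the same order. MDFIC, an inhibitor of MyoD-family factors, was high in DSF only, at 5.76 FPKM, against 1.65 FPKM in CTR and 1.46 and 1.75 FPKM in IM-DSF and IM; its fragments could not be recovered.

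The 24 lower genes without overlap included transcription factors and a histone methyltransferase. ZNF24, a zinc finger transcription factor, had 2.98 FPKM in DSF and 10.2 FPKM in CTR (ratio 0.291, 0.270 to 0.313), with 11.2 and 10.8 FPKM in IM-DSF and IM, so DSF was the single low library. PRDM2, a histone methyltransferase, had 0.893 FPKM in DSF and 3.65 FPKM in CTR, and ZNF260 had 0.427 and 2.13 FPKM; both lay at 3.01 FPKM or more in IM-DSF and IM. JRK, a nuclear protein derived from a transposase, had the smallest ratio of the class, 0.0653 (0.0504 to 0.0834), with 0.182 FPKM in DSF and 2.78 FPKM in CTR. SPIN1, a reader of methylated histone tails, had 2.27 FPKM in DSF and 8.18 FPKM in CTR, and the adhesion adaptor LIMS1 had 1.3 and 5.24 FPKM. In SPIN1 and LIMS1, CTR was the single high library, since IM-DSF and IM had between 1.14 and 2.78 FPKM.

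ZKSCAN1, ANKRD52 and GMFB were low in both libraries given DSF. ZKSCAN1 had 2.03 FPKM in DSF and 7.44 FPKM in CTR, and 2.50 FPKM in IM-DSF and 9.38 FPKM in IM. ANKRD52, a regulatory subunit of a protein phosphatase, had 8.14 and 19.2 FPKM in DSF and CTR, and 5.43 and 14.9 FPKM in IM-DSF and IM. GMFB, which remodels branched actin, had 1.36 FPKM in DSF and 4.69 FPKM in CTR, and 0.872 and 3.92 FPKM in IM-DSF and IM. MKI67, the proliferation antigen Ki-67, showed the same order, with 11.0 FPKM in DSF and 24.5 FPKM in CTR, and 7.76 and 27.8 FPKM in IM-DSF and IM. SNX10, a sorting nexin of endosomes, went opposite ways in the pairs, with 3.04 FPKM in DSF and 9.64 FPKM in CTR but 13.0 FPKM in IM-DSF and 3.70 FPKM in IM. EDEM3, which trims glycans of misfolded glycoproteins, had 4.77 and 11.5 FPKM in DSF and CTR, and TYW3, a tRNA-modifying enzyme, 5.81 and 14.1 FPKM. Of all 46 genes without overlap, 6 passed the size rule in the same direction between IM-DSF and IM, 5 passed it in the opposite direction and 35 did not pass it; 1.01% of all genes of this class passed it between IM-DSF and IM.

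**Figure D2:**
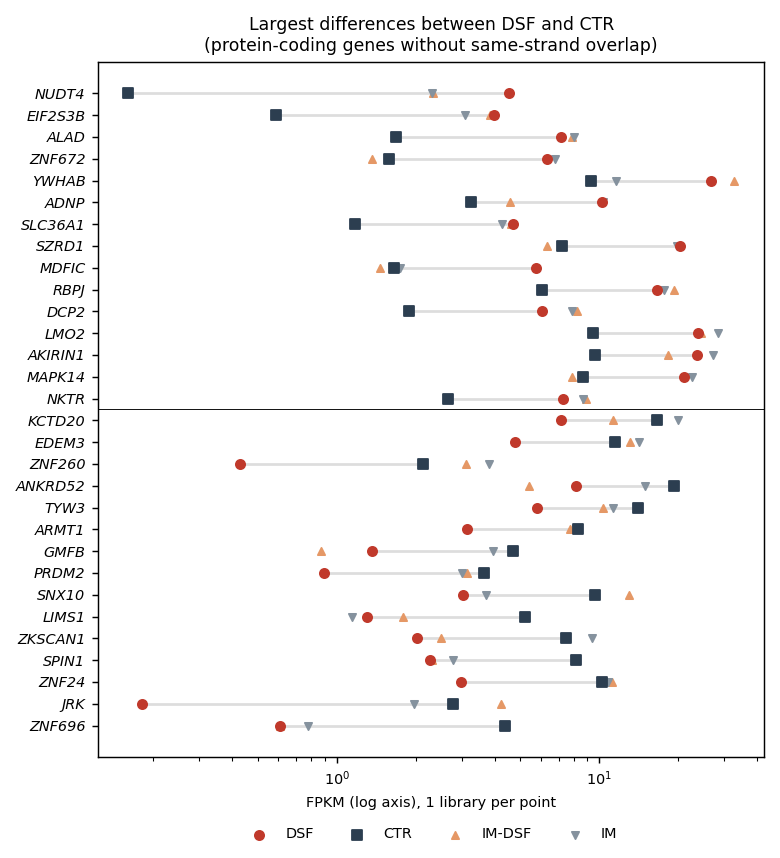
FPKM on a log axis for the 15 protein-coding genes without same-strand overlap that were most higher (above the line) and the 15 most lower (below it) in DSF than in CTR; each symbol is 1 library and the grey bar joins DSF and CTR. IM-DSF and IM lie close to DSF for ALAD, SLC36A1 and LMO2, close to CTR for ZNF24, and on opposite sides for YWHAB, MAPK14 and SNX10.

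The largest differences of the comparison belonged to genes with a same-strand overlap, and for many of these the locus as a whole did not differ. BLOC1S5-TXNDC5, a read-through gene annotated across 2 neighbours, had 163 FPKM from 7261 fragments in DSF and was listed at 0 in CTR. TXNDC5, the disulfide isomerase inside it, had 1585 fragments in DSF and 8624 in CTR. Together they held 8846 fragments in DSF and 8624 in CTR, a depth-scaled ratio of 1.01 (0.982 to 1.04). FMC1-LUC7L2 had 216 fragments in DSF and 1836 in CTR while the splicing factor LUC7L2 inside it had 3914 and 2304, and the locus ratio was 0.988 (0.947 to 1.03). BIVM-ERCC5, whose length could not be recovered, had about 2042 fragments in DSF and 0 in CTR, the repair nuclease ERCC5 within it had 956 and 1892, and their locus ratio was 1.34 (1.27 to 1.41). ISY1-RAB43 had 322 fragments in DSF and 0 in CTR, against a locus ratio of 0.950 (0.876 to 1.03). In each of these loci the read-through gene and its partner differed in opposite directions. Of the 58 overlapping genes, 30 were no longer 2-fold apart when all same-strand overlapping genes were summed, 16 of them within 1.1-fold.

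Of the other 28, 6 had no overlapping gene in the deposited table, so nothing was added to them, and 22 of the 52 genes with a partner kept a 2-fold difference in the same direction. RAB5C, a GTPase of early endosomes, had 1308 fragments in DSF and 465 in CTR, and its locus ratio was 2.36 (2.14 to 2.60). RAB31, a GTPase of the trans-Golgi route, had 1168 and 292 fragments and a locus ratio of 3.95 (3.47 to 4.50). The volume-regulated channel subunit LRRC8D (2564 and 814 fragments in DSF and CTR) and the LKB1 scaffold CAB39 (1662 and 662) were likewise higher. CS, the citrate synthase of the TCA cycle, had 1825 fragments in DSF and 4396 in CTR and a locus ratio of 0.436 (0.414 to 0.459). SLC39A1, a zinc importer of the plasma membrane, had 300 and 1047 fragments (0.283, 0.248 to 0.322), and the 14-3-3 adaptor YWHAH had 513 and 1650 (0.307, 0.277 to 0.339). BCL2L2, the survival protein BCL-w, had 31 fragments in DSF and 445 in CTR, and 173 and 569 with its read-through gene (0.3, 0.252 to 0.356). SLC39A1, YWHAH and CAB39 are among the 6 genes to which no partner could be added, so their ratios are their own.

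**Figure D3:**
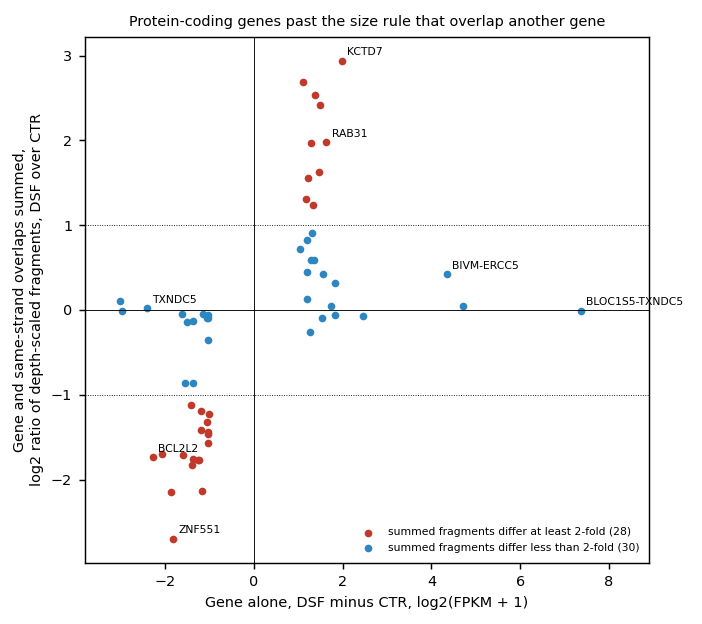
Each point is 1 of the 58 protein-coding genes past the size rule with a same-strand overlap. The horizontal axis gives the gene's own difference between DSF and CTR, the vertical axis the log2 ratio after summing fragments over the overlapping genes; 28 genes lie beyond the dotted 2-fold lines (6 of them with no partner to add) and 30, with the read-through genes BLOC1S5-TXNDC5 and BIVM-ERCC5 at the right, do not.

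None of the genes for the protein targets of the drug passed the size rule. Only 1.12% of all genes compared passed it, so finding none in lists this short says little. ALDH2, the mitochondrial aldehyde dehydrogenase that disulfiram is prescribed to block, was below the filter, with 12 fragments in DSF and 2 in CTR, and so was ALDH1A1, with 20 and 12. Of 19 aldehyde dehydrogenase genes, 8 passed the filter, 4 higher and 4 lower in DSF, none past the size rule. The counting interval lay above 1 for 3 and below 1 for 3 of the 8, against 22.9% and 22.7% of all genes. The largest difference among the 8 was that of ALDH4A1, a mitochondrial proline-pathway enzyme, at 3.07 FPKM in DSF and 2.15 FPKM in CTR. NPLOC4, which encodes NPL4, had 9.47 FPKM in DSF and 11.2 FPKM in CTR (ratio 0.845, 0.797 to 0.896), VCP had 49.7 and 53.6 FPKM, and their partner UFD1 16.2 FPKM in both. All 20 genes of the segregase list passed the filter and none the size rule, and their median difference was -0.02, against 0.00 over all genes. GPX4 had 20.1 FPKM in DSF and 19.6 FPKM in CTR (1.02, 0.955 to 1.1). ABL1 had 34.7 and 34.0 FPKM and BCR 4.16 and 4.22 FPKM; the deposited values do not tell the fusion transcript from the normal ones.

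Metallothionein genes, which encode small cysteine-rich proteins that bind zinc and copper, were lower with DSF in 4 of the 5 that were expressed. MT1E had 10.9 FPKM in DSF and 16.3 FPKM in CTR, a ratio of 0.669 (0.566 to 0.788). MT2A had 4.6 FPKM in DSF and 6.44 FPKM in CTR (0.715, 0.595 to 0.858), and MT1X had 6.63 and 8.73 FPKM (0.760, 0.651 to 0.887). MT1G had 6.76 and 8.67 FPKM (0.780, 0.621 to 0.980), and MT1F 1.82 and 1.77 FPKM (1.02, 0.740 to 1.42). Between IM-DSF and IM the same direction was seen for MT1E, at 5.98 and 9.83 FPKM, and for MT1X, at 3.72 and 5.58 FPKM, while MT2A had 3.87 and 3.99 FPKM. SLC30A1, the zinc exporter that is also a target of MTF1, had 13.2 FPKM in DSF and 18.5 FPKM in CTR (0.714, 0.659 to 0.773), and MTF1 itself 10.1 and 10.2 FPKM. The metallothionein genes are near-identical neighbours, and how reads that match several of them were counted is not known. Over the whole list of metallothioneins and zinc transporters, 5 of 18 were higher and 13 lower, with a median of -0.06. The interval lay above 1 for none and below 1 for 9 of 17 with fragments, against 22.9% and 22.7% of all genes. SLC39A1 alone passed the size rule, against 1.12% of all genes compared.

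The promoters of MT2A and MT1X, taken from RefSeq on GRCh38.p14, are printed because this family is the standard readout of metal entering a cell. The 250 bases before the start of transcription are shown, with matches in capitals to the core of the metal response element, TGCNCNC on either strand, to which MTF1 binds. MT2A (chr16:56608334-56608583, plus strand) held 7 matches and MT1X (chr16:56682220-56682469, plus strand) 4. At least 1 match stood in 49.1% of 35116 promoters and at least 3 in 5.85%. MT1E, MT1F and MT1G had no entry.
MT2A: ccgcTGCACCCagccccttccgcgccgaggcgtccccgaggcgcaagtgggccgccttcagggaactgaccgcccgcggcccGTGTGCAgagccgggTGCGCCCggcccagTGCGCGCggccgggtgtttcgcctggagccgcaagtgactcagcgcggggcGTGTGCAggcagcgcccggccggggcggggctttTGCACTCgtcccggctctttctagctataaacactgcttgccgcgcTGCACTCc
MT1X: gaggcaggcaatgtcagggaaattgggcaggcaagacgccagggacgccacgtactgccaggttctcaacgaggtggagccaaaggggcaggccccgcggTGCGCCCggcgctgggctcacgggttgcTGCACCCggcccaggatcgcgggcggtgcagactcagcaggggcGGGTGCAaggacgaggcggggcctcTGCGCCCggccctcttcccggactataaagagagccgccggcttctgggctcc
The 2 genes with these promoters were both lower in DSF than in CTR by the values above. A match is a run of letters and does not show that a factor was bound.

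NRF2 targets were lower with DSF in 15 of 19 cases, with a median of -0.27, the most negative among lists with at least 5 members past the filter. The counting interval lay below 1 for 14 of 18 genes with fragments, against 22.7% of all genes, and above 1 for EPHX1 alone. That share rises with level. It was 1615 of 4996 protein-coding genes that averaged 5 FPKM or more, and 554 of 1261 that averaged 20 FPKM or more. None of the 19 NRF2 targets passed the size rule, against 1.12% of all genes compared. HMOX1, the heme oxygenase, had 0.857 FPKM in DSF and 2.04 FPKM in CTR (ratio 0.420, 0.291 to 0.599), and 2.14 and 1.21 FPKM in IM-DSF and IM. NQO1, a quinone reductase, had 3.55 FPKM in DSF and 6.36 FPKM in CTR (0.558, 0.482 to 0.644), and CTR was the highest of the 4 libraries. FTH1, the ferritin heavy chain that stores iron, had 43.4 and 66.6 FPKM (0.651, 0.625 to 0.678), against 69.3 and 45.7 FPKM in IM-DSF and IM. Its partner FTL, the light chain, had 3526 FPKM in DSF and 3235 FPKM in CTR. Other listed genes were SLC7A11, the cystine antiporter, at 8.38 and 11.3 FPKM, and GCLM, the modifier of glutamate-cysteine ligase, at 8.60 and 11.2 FPKM. The reductases TXNRD1 (22.5 and 27.6 FPKM in DSF and CTR) and GSR (39.5 and 51.1 FPKM) were lower too. The list of glutathione genes, which shares members with this one, had a median of -0.02, with 7 of 21 higher and 14 lower. Its counting interval lay below 1 for 5 and above 1 for 3 of 19 with fragments, against 22.7% and 22.9% of all genes. SLC7A11 also went the other way between IM-DSF and IM, at 14.3 and 7.73 FPKM, where the median of the 19 NRF2 targets was 0.08. Ferritin, HMOX1 and SLC7A11 also stand in the list of ferroptosis and lipid peroxidation genes, of which 6 of 17 were higher and 11 lower, with a median of -0.11. ACSL4, which loads membranes with polyunsaturated fatty acids, had 11.3 FPKM in DSF and 13.7 FPKM in CTR.

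The promoters of GCLM (chr1:93909431-93909680, minus strand), TXNRD1 (chr12:104215529-104215778, plus strand) and ME1 (chr6:83431052-83431301, minus strand), also from RefSeq on GRCh38.p14, are shown for their antioxidant response element, the site of NRF2. The core TGACNNNGC on either strand is in capitals; it stood once in these 3 and in PGD, 4 of the 12 listed genes with an entry, and in 10.9% of all promoters.
GCLM: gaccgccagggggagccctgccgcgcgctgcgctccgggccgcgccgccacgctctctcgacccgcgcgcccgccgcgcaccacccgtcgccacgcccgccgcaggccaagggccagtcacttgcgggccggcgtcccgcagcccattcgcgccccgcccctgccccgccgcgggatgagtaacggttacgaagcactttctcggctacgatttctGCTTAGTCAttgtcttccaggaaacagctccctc
TXNRD1: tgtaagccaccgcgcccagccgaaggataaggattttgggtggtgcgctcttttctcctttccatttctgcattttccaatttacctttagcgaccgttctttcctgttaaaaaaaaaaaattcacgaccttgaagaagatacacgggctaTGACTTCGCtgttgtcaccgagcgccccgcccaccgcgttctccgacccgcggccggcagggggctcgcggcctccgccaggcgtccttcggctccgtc
ME1: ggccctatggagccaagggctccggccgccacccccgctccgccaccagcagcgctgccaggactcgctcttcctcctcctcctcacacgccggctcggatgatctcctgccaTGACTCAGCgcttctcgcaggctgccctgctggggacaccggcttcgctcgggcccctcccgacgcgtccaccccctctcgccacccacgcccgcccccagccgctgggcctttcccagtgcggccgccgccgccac
ME1, the cytosolic malic enzyme that supplies NADPH, had 13.2 FPKM in DSF and 18 FPKM in CTR (ratio 0.732, 0.660 to 0.810).

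Chaperone genes were also lower, in 23 of 27 cases, with a median of -0.22. None passed the size rule, against 1.12% of all genes compared. The counting interval lay below 1 for 20 of 26 and above 1 for HSF1 alone. It lay below 1 for 22.7% of all genes, and for 554 of 1261 protein-coding genes that averaged 20 FPKM or more. HSP90AA1, the inducible HSP90, had 164 FPKM in DSF and 231 FPKM in CTR, and HSPH1, a nucleotide exchange factor for HSP70 chaperones, 14.4 and 21.8 FPKM. SERPINH1, the collagen chaperone, had the largest difference of the list, at 3.34 FPKM in DSF and 6.12 FPKM in CTR (0.545, 0.490 to 0.605). The mitochondrial chaperonin pair was lower, with 197 and 256 FPKM for HSPD1 and 72.2 and 91.2 FPKM for HSPE1. Other members had smaller differences: HSPA1B, which is nearly identical to HSPA1A, had 11.7 FPKM in DSF and 13.7 FPKM in CTR, DNAJB1 17.4 and 19.5 FPKM, and BAG3 7.42 and 7.38 FPKM. HSF1 had 7.38 FPKM in DSF and 6.26 FPKM in CTR. Between IM-DSF and IM the median of this list was -0.21, with 21 of 27 lower, among them DNAJB1 at 10.3 and 16.5 FPKM. Of 24 chaperone genes with a RefSeq promoter, 8 held the heat shock element GAANNTTC, against 5.78% of all promoters; HSPA8 held 2 matches and CHORDC1 3.

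Lists of growth and protein turnover leaned the same way by less. Proteasome subunits were lower in 29 of 32 cases (median -0.14), genes of ribosome biogenesis that MYC drives in 27 of 29 (median -0.13), mitosis genes in 28 of 32 (median -0.13) and genes of G1/S and replication in 25 of 34 (median -0.08). Between IM-DSF and IM the medians were, in the same order, -0.09, -0.03, -0.12 and -0.13. There 12 of the 29 ribosome biogenesis genes were higher and 17 lower. Of all 1299 protein-coding genes that averaged 20 FPKM or more, 817 were lower and 482 higher, with a median of -0.05, so these abundant lists are read against that. PSMB5, the proteasome's chymotrypsin-like subunit, had 16.9 FPKM in DSF and 23.6 FPKM in CTR, and the nucleolar methyltransferase FBL had 65.8 and 86.6 FPKM. AURKA, a spindle kinase, had 16.3 and 20.5 FPKM, and PLK1 10.5 and 13.0 FPKM. NUSAP1, a spindle protein, went the other way at 35.8 and 21.4 FPKM. MKI67 was the 1 gene of 32 in the mitosis list past the size rule, against 1.12% of all genes compared.

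Targets of the integrated stress response and of the unfolded protein response were not higher with DSF as groups. Of 26 ATF4 targets, 8 were higher and 18 lower (median -0.14). TRIB3, a pseudokinase and a sensitive ATF4 target, had 5.52 FPKM in DSF and 11.4 FPKM in CTR (0.485, 0.427 to 0.551), and ASNS, the asparagine synthetase, 4.20 and 5.78 FPKM. Of 22 genes of the unfolded protein response, 8 were higher and 14 lower (median -0.06). XBP1, one of its transcription factors, had 9.28 FPKM in DSF and 19.0 FPKM in CTR (0.489, 0.458 to 0.523), while the chaperone CALR had 353 and 289 FPKM. Among STAT5 targets, which report BCR-ABL signalling, 3 of 14 were higher and 11 lower (median -0.08), with PIM1 at 8.18 FPKM in DSF and 16 FPKM in CTR and CCND3, a G1 cyclin, at 3.02 and 6.72 FPKM. In the BCL2 family the pro-death gene BCL2L11 had 1.64 FPKM in DSF and 3.99 FPKM in CTR (0.412, 0.364 to 0.466). It had 1.02 FPKM in IM-DSF and 7.32 FPKM in IM.

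Copper handling and lipoylation genes were lower in 17 of 22 cases (median -0.11). DLAT, the acetyltransferase core of pyruvate dehydrogenase that carries lipoate, had 19.0 FPKM in DSF and 29.2 FPKM in CTR (0.653, 0.615 to 0.692), and DLD, the dehydrogenase that reoxidises lipoate, had 15.3 and 20.3 FPKM (0.752, 0.709 to 0.798). SLC31A1, the copper importer, had 10.5 and 12 FPKM. FDX1, the ferredoxin needed for lipoylation, had 7.45 and 7.55 FPKM. Between IM-DSF and IM, DLAT had 14.3 and 14.1 FPKM.

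**Figure D4:**
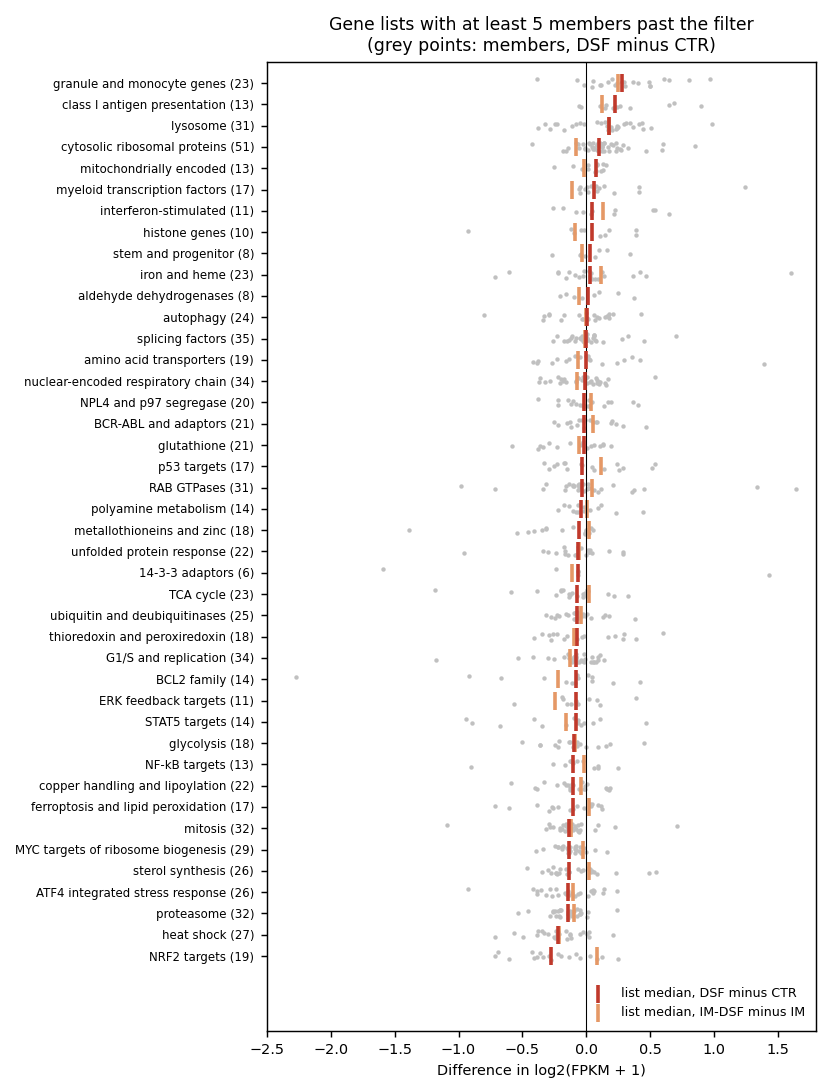
Difference in log2(FPKM + 1) for gene lists with at least 5 members past the filter (number in brackets), ordered by their median between DSF and CTR (red bar); grey points are members and the orange bar is the median between IM-DSF and IM. Granule and monocyte genes lie highest (0.28) and NRF2 targets lowest (-0.27), and the orange bar lies on the same side for the granule genes and on the other for the NRF2 targets.

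Most granule and monocyte genes were higher with DSF. Of 23 granule and monocyte genes, 20 were higher and 3 lower, with a median of 0.28, and the counting interval lay above 1 for 15 and below 1 for 1 (22.9% and 22.7% of all genes). None passed the size rule, against 1.12% of all genes compared. The azurophil granule proteins AZU1 (170 FPKM in DSF and 111 FPKM in CTR) and ELANE, neutrophil elastase (526 and 372 FPKM), were higher. LYZ, lysozyme, had 217 FPKM in DSF and 154 FPKM in CTR (1.40, 1.36 to 1.45). Receptors were among the larger ratios, with CSF3R, which receives the granulocyte growth factor G-CSF, at 9.50 and 5.003 FPKM (1.90, 1.77 to 2.04) and CSF1R, its counterpart on monocytes, at 1.03 and 0.434 FPKM (2.37, 1.64 to 3.49). MS4A6A, a membrane protein of monocytes, had 2.78 FPKM in DSF and 0.929 FPKM in CTR (2.99, 2.50 to 3.58). CYBB, the catalytic subunit of the phagocyte oxidase, had 11.2 and 6.81 FPKM. NCF1, a cytosolic subunit of that oxidase with near-identical copies, had 1.02 and 1.64 FPKM. CD14 and FCN1, markers of mature monocytes, were below 0.2 FPKM in both libraries. Between IM-DSF and IM, 18 of the 23 were higher (median 0.25), but CTSG had 191 and 260 FPKM and PRTN3 989 and 1239 FPKM.

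Among abundant genes without overlap the differences were smaller. CFD, the complement protease adipsin, had 48.9 FPKM in DSF and 25.9 FPKM in CTR (1.89, 1.7 to 2.1), PLAC8 had 44.8 and 28.4 FPKM, and GRN, the progranulin of lysosomes, had 24.1 and 15.4 FPKM. These 3 genes had between 40.7 and 102 FPKM in IM-DSF and IM. Of 17 myeloid transcription factors, 13 were higher, with a median of 0.06, but between IM-DSF and IM 5 were higher and 12 lower (median -0.11). Beside LMO2, the progenitor factor MYB had 41.5 and 31.0 FPKM in DSF and CTR, and SPI1, the master factor PU.1, had 62.4 and 58.1 FPKM. The largest negative differences of abundant genes were those of SNRPD2, an Sm protein of the spliceosome (27.8 FPKM in DSF and 58.3 FPKM in CTR), and CAPZA1, an actin-capping subunit (37.3 and 70.5 FPKM). In bulk RNA, more cells of a mature type and more RNA per cell cannot be told apart.

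Lysosome and class I antigen presentation genes leaned upwards as well. Of 31 lysosomal genes, 21 were higher and 10 lower (median 0.18). The interval lay above 1 for 17 and below 1 for 5 of 27, against 22.9% and 22.7% of all genes. GAA, the acid glucosidase, had 5.04 FPKM in DSF and 2.06 FPKM in CTR (2.45, 2.08 to 2.88), PSAP, the precursor of the saposins, had 56.8 and 39.7 FPKM, and FUCA1 had 12.2 and 8.89 FPKM. The cathepsins CTSS (8.55 and 11.4 FPKM) and CTSD (36.0 and 45.3 FPKM) were lower. Of 13 genes of class I presentation, 11 were higher and 2 lower (median 0.22). TAPBP, the peptide-loading factor tapasin, had 19.0 FPKM in DSF and 11.8 FPKM in CTR (1.61, 1.51 to 1.72), HLA-E had 39.2 and 30.8 FPKM, and B2M, the invariant chain, had 33.2 and 29.9 FPKM. HLA-B and HLA-C had ratios of 1.64 and 1.93, but they overlap each other and are polymorphic copies of one family. The interferon-stimulated list had a median of 0.05, with 7 of 11 higher. Among the list members named, MT1X, TXNRD1, ACSL4, HSPE1, HSPA1B, HSPA8, PSMB5, NUSAP1, ASNS, CALR, CCND3, CYBB, PSAP, CTSD, ALDH4A1 and BCR have a same-strand overlap as well, so their values are uncertain.

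**Figure D5:**
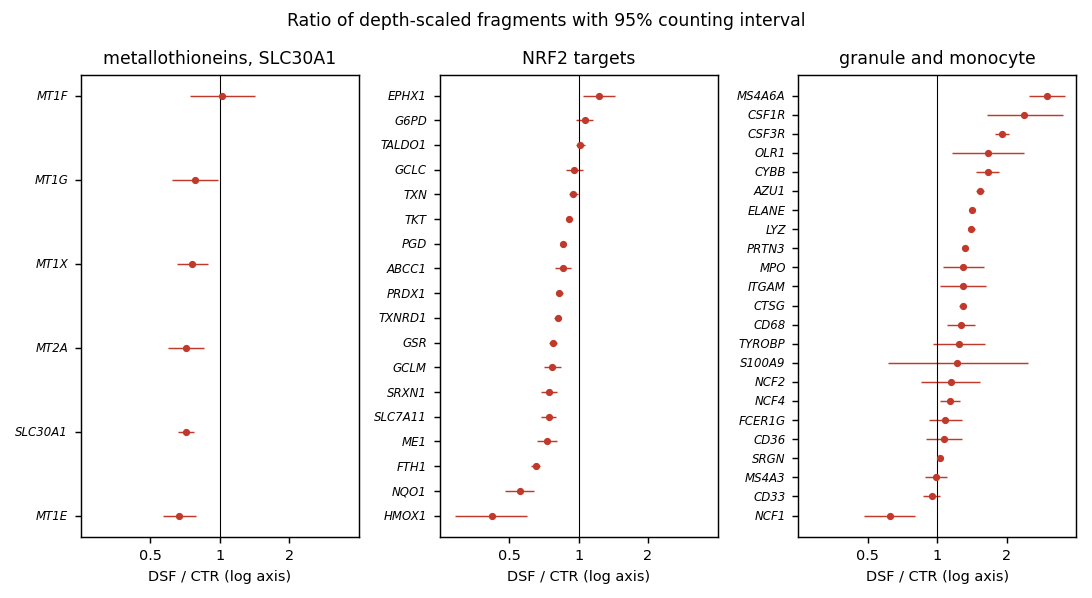
Ratio of fragments scaled to depth, DSF over CTR, with its exact 95% counting interval on a log axis, for metallothioneins with SLC30A1, NRF2 targets, and granule and monocyte genes whose fragments were recovered. Most members of the first 2 groups lie left of 1 (HMOX1 at 0.420 and MT1E at 0.669), and most granule and monocyte genes lie right of it (AZU1 at 1.53 and MS4A6A at 2.99).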

How the data were processed

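The authors deposited 1 table of FPKM for 50868 genes, with 1 value column for each of 4 libraries, per the file headers. The submitters' processing notes name HISAT2 2.0.4 and the build GRCh38.p14, and the labels' protocols a stranded mRNA kit. For the counter, the annotation and the gene lengths, the answer is not given in the sources used here. Fragments were recovered by setting FPKM times gene length times a denominator per library to whole numbers within 0.05. The lengths that did so were sums of all distinct GENCODE 29 exons, overlapping exons counted separately: between 91.9% and 92.0% of genes with several transcripts came out whole, against 9.66% to 10.2% with the union of exons. FPKM of genes with many annotated exons therefore reads low. Levels set side by side for different genes, sums over lists and shares of FPKM are for that reason only rough. A ratio within a gene is not affected. For 1102 of 1458 other genes past the filter, 1 length between 70% and 130% of the exon sum made all libraries whole within 0.02. Same-strand overlaps are from GENCODE 29.

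The pseudocount was 1, the filter a mean of at least 1 FPKM and the size rule 1 log2 unit. No count test was run, since each group has 1 library. Intervals are exact conditional (Clopper-Pearson) 95% intervals for counting error only, and PCR copies make them too narrow. The members, the 47 gene lists and the rules were chosen with earlier results of these data known. Of 1051 list symbols, 1 matched no gene. Genes named outside the lists are the 15 largest differences per direction among protein-coding genes without same-strand overlap, the 5 largest with it, the 10 largest with a mean of at least 20 FPKM, the 5 largest in FPKM itself (all leaving out pseudogenes and clone-style names), and up to 5 per list, plus GPX4, BCR, ABL1, ALDH1A1, ALDH2, NPLOC4 and VCP; other members named were chosen after their values were seen. Promoters are 250 bases upstream of RefSeq starts. The scripts were tested on simulated data. Python 3.11.15, numpy 2.4.6, pandas 2.3.3 and scipy 1.17.1 were used.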

Additional observations from a re-analysis of the deposited data

Results flagged for a closer look

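Of the 123 genes past the size rule between DSF and CTR, 15 also passed it the opposite way between IM-DSF and IM; 7 of these are named or listed genes and are given here. In these 7 genes the DSF and CTR libraries differed past the size rule one way and the IM-DSF and IM libraries past it the opposite way; these were picked out because the 2 pairs share no library and moved in opposite directions. The difference between the pairs was not tested, since each side is 1 library. ZNF672 was 1.5 log2 units higher in DSF than in CTR and -1.72 between IM-DSF and IM. The same 2 differences were 1.40 and -1.02 for ADNP, 1.38 and -1.50 for SZRD1, and 1.19 and -1.40 for MAPK14. They were -1.40 and 1.58 for SNX10 and -1.86 and 1.19 for ZNF664, which overlaps other genes. For the read-through gene BIVM-ERCC5 they were 4.35 and -4.66, with 19.4 FPKM in DSF, 0 in CTR, 0 in IM-DSF and 24.2 FPKM in IM.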

How the results depend on the processing

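The counts past the size rule moved with the settings. Against 60 higher and 63 lower, there were 168 and 141 with a pseudocount of 0.1, 300 and 300 of 14193 genes after rescaling to TPM (which multiplies all values by about 3.5 and so weakens the pseudocount and the filter), 24 and 29 with a mean of at least 5 FPKM, 22 and 24 among protein-coding genes free of same-strand overlap, and 277 and 232 with a size rule of 0.58. They were 59 and 70 with median-of-ratios factors, 59 and 69 with trimmed-mean factors and 84 and 79 without the filter. Settings chosen after seeing the data gave 78 and 80 with union exon lengths and 56 and 61 with whole fragments only. Leaving out the 30 overlapping genes that were no longer 2-fold apart after summing left 43 and 50. This last step could only remove genes, since the other genes were not summed and counted anew. Rescaling moved the median of all genes by at most 0.033 log2 units. The 331 list medians tried stayed within 0.1 of the reported one, and none of the 13 lists with a median of at least 0.1 either way changed sign. Of 1130 values tried for 268 named genes, 167 moved. A change of sign was looked for only in genes past the size rule, and 0 were found. The changes of scale were too small to reverse such genes, so this 0 says little. No paired analysis was possible because each group has 1 library. Depth limits genes such as ALDH2, with 12 fragments in DSF and 2 in CTR, whose ratio was 5.92 (1.32 to 54.5).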

Other observations

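Most mitochondrially encoded and ribosomal protein genes were slightly higher in DSF. Of 13 mitochondrial protein genes 10 were higher (median 0.08), with MT-CO2, a cytochrome oxidase subunit, at 10207 FPKM in DSF and 9161 FPKM in CTR. Between IM-DSF and IM, 6 of the 13 were higher and 7 lower (median -0.02), with MT-CO2 at 8943 and 9682 FPKM. MT-ND6, the 1 protein gene on the light strand of the mitochondrial genome, was lower in both pairs. It had 853 and 1015 FPKM in DSF and CTR, and 413 and 666 FPKM in IM-DSF and IM. Of 51 cytosolic ribosomal protein genes 41 were higher in DSF (median 0.10), with RPS18 at 535 and 352 FPKM, but between IM-DSF and IM 33 of 51 were lower (median -0.08). RPL29 had 93.1 FPKM in DSF and 147 FPKM in CTR, and 195 and 91.0 FPKM in IM-DSF and IM; these genes have many near-identical pseudogenes.

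Iron and heme genes were mixed, and most glycolysis and sterol genes were lower. Of 23 iron and heme genes 13 were higher and 10 lower; beside ALAD, UROS, the next but one enzyme of heme synthesis, had 3.44 FPKM in DSF and 2.20 FPKM in CTR, and the transferrin receptor TFRC had 36.0 and 42.1 FPKM. Of 18 glycolysis genes 13 were lower (median -0.10), with PKM, the pyruvate kinase, at 45.2 and 64.6 FPKM. In sterol synthesis 17 of 26 genes were lower (median -0.13). The counting interval lay below 1 for 13 and above 1 for 2 of 23, against 22.7% and 22.9% of all genes. The brake INSIG1 had 11.5 FPKM in DSF and 7.58 FPKM in CTR, while HMGCS1, an early enzyme, had 11.1 and 15.7 FPKM. GABARAPL1, an autophagosome protein, had 0.952 FPKM in DSF and 2.40 FPKM in CTR (0.397, 0.338 to 0.465), against 5.56 and 3.81 FPKM in IM-DSF and IM. The inflammatory cytokine TNF had 2.19 and 4.98 FPKM in DSF and CTR (0.440, 0.313 to 0.612). The higher gene nearest to the size rule from below, STMN1, a microtubule-destabilising protein, had 75.2 FPKM in DSF and 37.2 FPKM in CTR, and ELK3, just past it, had 5.49 and 2.22 FPKM. STMN1 was not among the genes without same-strand overlap, so its value is uncertain.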
